A study of Mus musculus with 6 samples.

Results

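The chemokines and their receptors were examined on arrays of microglia isolated after acute ischemic stroke (AIS) from mice with or without PGC-1α overexpression in these cells. A gene was a member if its RefSeq symbol was Ccl, Cxcl, Ccr, Cxcr, Xcl, Xcr or Ackr followed by a number, or Cx3cl1, with Cx3cr1 itself left out. The rule gave 57 of the 23462 genes that a probe could be matched to, 35 ligands and 22 receptors, covered by 72 probes. Of these, 48 genes passed the filter on dim probes and were tested. For 4 further coding genes of the rule (Ccl21b, Ccl21c, Ccl21d and Ccl27b) no probe was matched.

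Both groups were male mice of 10 weeks on a C57BL/6 background, and all mice of both groups had AIS. Control mice (PGC-1α f/f) had no Cre recombinase, but had an allele with loxP sites through which Cre can switch on PGC-1α together with an eGFP reporter. The mPGC-1α mice had this allele and a Cre that tamoxifen activates, driven from Cx3cr1, a chemokine receptor gene active in microglia and in other myeloid cells. In the stroke experiments of the study, mice of both genotypes received tamoxifen and then a transient occlusion of the middle cerebral artery. The time from stroke to isolation of the cells on the arrays was not given in the sources used here. Each group had 3 arrays, 1 per sample, and nothing in the labels says whether a sample was 1 mouse or several, so p-values measure the spread between these samples.

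Chemokines are small secreted proteins that bind receptors coupled to inhibitory G proteins and direct the migration of leukocytes. They are named after the spacing of their first cysteines (CC, CXC, XC, CX3C). The atypical receptors (Ackr) bind chemokines without this G protein signal and remove or transport them. After a stroke, microglia and blood vessels release CC and CXC ligands that draw monocytes, neutrophils and lymphocytes into the injured tissue.

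A level is log2 of the background-subtracted array signal minus the 75th percentile of the same array, so a level of 0 lies at that percentile, and levels of different probes cannot be ranked against each other. A difference is the mPGC-1α mean minus the control mean on that log2 scale, given with its standard error (SE) from limma, a linear model with a spread shared across probes. An adjusted p is limma's p after Benjamini-Hochberg adjustment over all 40745 tested probes. An exact permutation test of 3 arrays against 3 cannot give a two-sided p below 0.1.

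The arrays had 70.98% to 86.54% of spots well above background, lowest on control array 3 and mPGC-1α array 3, which lay on slide 2 while the other 4 arrays lay on slide 1. The same 2 arrays had 3010 and 4931 spots marked as outliers, against 549 to 1094 on the others, and such spots were left out of levels and tests but kept in the summed marker levels below. Ppargc1a, the gene meant to be overexpressed, was not higher in mPGC-1α: its 2 probes gave differences of -0.43 (SE 0.28) and -0.33 (SE 0.24), adjusted p 0.788 and 0.817, and which transcripts of the transgene they detect was not given, so the groups are called by their labels. All 12 microglia markers were well above background on every array where they were not marked as outliers, and their summed level was 7.66 to 7.81 in control and 7.71 to 7.84 in mPGC-1α. Astrocyte, neuron and oligodendrocyte markers were higher in mPGC-1α in 11 of 11, 12 of 12 and 12 of 12 tested genes, with median differences of 0.96, 0.94 and 0.86, and none had an adjusted p below 0.05. Choroid plexus markers were lower in 6 of 6 tested genes (median difference -0.67) and monocyte and border macrophage markers in 9 of 12 (median -0.13), and the part of these cells in the receptor levels was not tested.

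The promoters of 5 of the inducible ligands described below are shown first, chosen with their array levels known. RefSeq promoter sequences (GRCm38.p6, 250 bases before to 50 after the gene start) were found for 43 of the 57 members. The others, among them Ccl2, Ccl4, Ccl5, Ccl7, Cxcl5 and Cxcl16, had no sequence and were not searched. In the lines below, written 5′ to 3′ in the direction of the gene, capitals mark matches to the NF-κB consensus, to GAAANNGAAA (the core of the interferon-stimulated response element) or to TGANTCA (AP-1), searched on both strands. Cxcl9 (chr5:92328080-92328329, minus strand) and Cxcl10 (chr5:92348890-92349139, minus strand) are shown over the 250 bases before the start, because these neighbouring genes encode ligands of the same receptor.
Cxcl9: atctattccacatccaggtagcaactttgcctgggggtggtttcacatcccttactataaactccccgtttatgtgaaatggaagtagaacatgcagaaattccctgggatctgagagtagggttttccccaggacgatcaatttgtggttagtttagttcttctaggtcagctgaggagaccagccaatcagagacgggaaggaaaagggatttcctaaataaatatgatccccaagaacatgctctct
Cxcl10: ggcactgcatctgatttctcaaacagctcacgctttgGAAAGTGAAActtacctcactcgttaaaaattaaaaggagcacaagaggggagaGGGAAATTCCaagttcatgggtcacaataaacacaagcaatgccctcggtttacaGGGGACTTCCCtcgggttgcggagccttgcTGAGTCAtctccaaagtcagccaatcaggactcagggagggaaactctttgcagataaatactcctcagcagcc
Cxcl10 had NF-κB matches starting 159, 104 and 103 bases before its start, the last pair overlapping, with GAAANNGAAA at 213 and TGANTCA at 74 bases before it. The Cxcl9 stretch held none of the 3 motifs, and a TGANTCA match began at base 32 of the gene. The neutrophil ligands Cxcl1 (chr5:90891125-90891204, plus strand), Cxcl2 (chr5:90903779-90903858, plus strand) and Cxcl3 (chr5:90785981-90786060, plus strand) are shown from 120 to 41 bases before their starts, because the same 11 bases recur in them.
Cxcl1: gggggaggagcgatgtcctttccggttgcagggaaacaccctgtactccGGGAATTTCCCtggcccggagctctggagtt
Cxcl2: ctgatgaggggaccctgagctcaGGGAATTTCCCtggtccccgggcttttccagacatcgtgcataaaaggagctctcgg
Cxcl3: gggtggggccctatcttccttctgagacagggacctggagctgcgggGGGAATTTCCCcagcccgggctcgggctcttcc
The NF-κB match, on both strands with an overlap, began 71, 97 and 73 bases before the start of Cxcl1, Cxcl2 and Cxcl3. Over the whole windows an NF-κB match was present in 10 of the 43 member promoters (23.3%) and in 8.18% of all 27025 promoters. GAAANNGAAA was present in 3 of 43 (6.98%, against 3.49%), those of Ccl19, Cxcl10 and Cxcl14. TGANTCA was present in 7 of 43 (16.3%, against 7.93%). These are matches of letters only, and no binding was measured on these arrays. Whether the motifs bear on the array levels was not tested.

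Detection was broad. On all 6 arrays 40 of the 57 members were well above background, 5 more were marked as outliers on at least 1 array, and only Ccl20 and Cxcl15 were well above background on no array. Besides these, Ccl1, Ccl22, Cxcl5, Cxcl17, Ccr4, Ccr10 and Xcr1 were not tested, because in neither group were all unmarked arrays well above background. The 11 genes above the 75th percentile on every unmarked array included the ligands Ccl3, Ccl4, Ccl5, Ccl6, Ccl9, Ccl12, Ccl19, Cxcl14 and Cxcl16 and the receptor Ackr1. Another 13 members were above the percentile on some arrays by their brightest probe, and 33 on none.

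Between the groups, the family showed no difference that passed the test. With limma 0 of 48 tested members had an adjusted p below 0.05, as had 0 of 18222 tested genes (0%), and the lowest value among the members was 0.669. Blocking on the replicate number gave 0 members and 1 tested gene (0.00549%). An unadjusted p below 0.05 was reached by 5 members (10.4%), against 5.94% of all tested genes. Of these, Ccl21a was higher in mPGC-1α, and Ccr1l1, Ackr4, Cxcr4 and Cxcl9 were lower, where the background is 2.97% in each direction. This count changed with the array left out, given next with the share over all tested genes in brackets. Leaving out control array 1, 2 or 3 gave 1 (4.02%), 13 (20.4%) and 4 members (2.84%). Leaving out mPGC-1α array 1, 2 or 3 gave 4 (4.24%), 3 (5.07%) and 2 members (4.87%). Among the 43 members with 6 values, the groups did not overlap for 5 (11.6%), all lower in mPGC-1α, against 11.2% of all genes in either direction, 7.34% in the higher and 3.87% in the lower one. These were Ccl11, Ccr1l1, Cxcr6, Ackr2 and Ackr4. With quantile normalization, and with the authors' log2 values, the genes without overlap were Ackr4, lower, and Ccl21a, higher, and normexp added Cxcr6, lower. The share over all genes was not computed in these settings. Ccr1l1 passed the filter through the control group, where it is higher. Without it, 4 of 47 members had an unadjusted p below 0.05 (8.51%) and 4 of 42 did not overlap (9.52%).

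Ligands and receptors lay on different sides of zero by their medians. The median difference over the 29 tested ligands was 0.22, with 20 higher and 9 lower in mPGC-1α, and over the 19 tested receptors it was -0.20, with 7 higher and 12 lower. These shares of higher genes, 69% and 36.8%, stand beside 61.7% of all tested genes. Of the lower receptors, Ccr1l1 and Cxcr1 passed the filter only through the control group, where they are higher. With the stricter filter, well above background on all unmarked arrays, 17 receptors remained, 7 of them higher, with a median of -0.18. The receptor median stayed between -0.35 and -0.02 in all settings run, and the ligand median between 0.09 and 0.43 except without control array 3, where it was -0.01. Whether the 2 kinds of gene differ was not tested. The median over all 48 members was 0.06, close to the 0.09 over all tested genes. Without control array 1 or control array 3 the family median was -0.11 and -0.10, with 0.01 and 0.03 for all tested genes, and without control array 2 it was 0.34 with 0.20. The plot of differences by role shows that for most members the SE is as large as the difference.

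**Figure D1:**
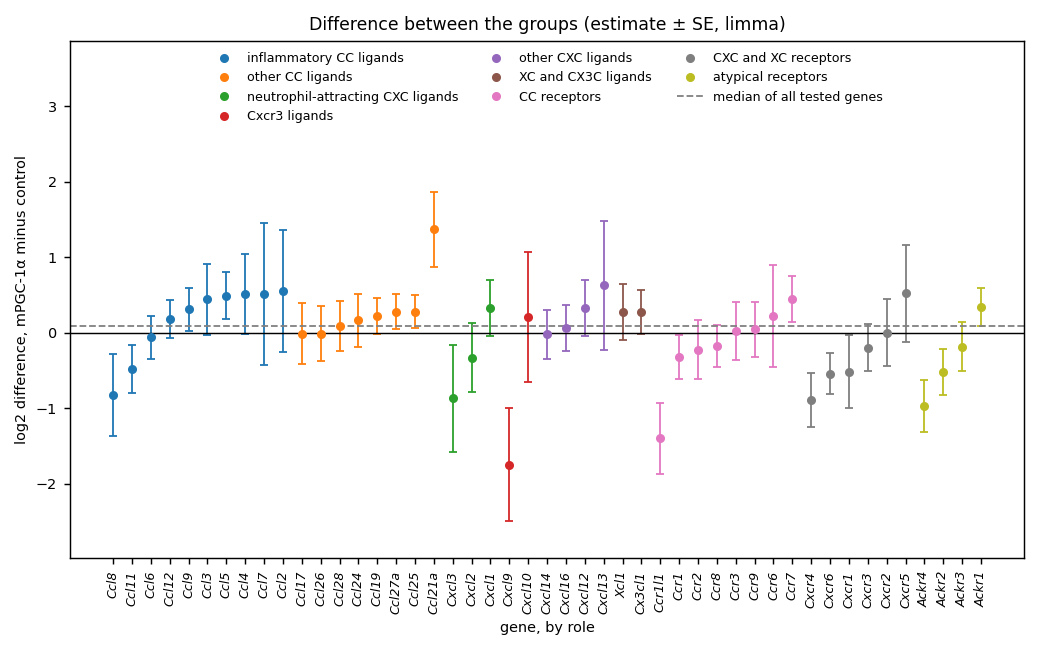
Log2 difference, mPGC-1α minus control, for 47 of the 48 tested members, ordered by role on the x axis (points, limma estimate; bars, SE) with the median of all tested genes as a dashed line. Ccl21a at 1.37 is the highest point and Cxcl9 at -1.74 the lowest, and most atypical and CXC receptors lie below 0.

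Inflammatory CC ligands, which draw monocytes and other leukocytes, were higher in mPGC-1α in 7 of 10 tested genes, with a median difference of 0.38 that became -0.10 without control array 3. None had an unadjusted p below 0.05. Ccl2, the main monocyte attractant and ligand of Ccr2, had levels of 2.14, 3.03 and -0.52 in control and of 3.25, 1.66 and 1.42 in mPGC-1α. The groups overlapped, and control array 3 stood far below the other 5 arrays. The difference was 0.56 (SE 0.81, adjusted p 0.921 by limma, exact permutation p 0.8), and it was -0.13 on slide 1 and 1.94 on slide 2. Without control array 3 it was -0.48.

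The same array was lowest in Ccl7, a second Ccr2 ligand, and in Ccl3 and Ccl4, attractants of monocytes and T cells. Ccl7 levels were -0.28, 0.79 and -3.06 in control and 1.24, -0.77 and -1.47 in mPGC-1α. Ccl4 levels were 3.19, 3.73 and 1.47 against 4.04, 2.81 and 3.10. Ccl3 levels were 3.74, 4.06 and 2.42 against 4.26 and 3.44, with mPGC-1α array 3 marked as an outlier. All 3 genes were also highest, among unmarked arrays, on mPGC-1α array 1, and in none did the groups separate. On slide 1 alone the differences of Ccl2, Ccl3, Ccl4 and Ccl7 lay between -0.13 and -0.02.

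Ccl5, which attracts T cells and monocytes and was also measured as a protein in the study, had levels of 1.20, 2.07 and 2.08 in control and 2.81, 1.91 and 2.10 in mPGC-1α. Control array 1 was the lowest and mPGC-1α array 1 the highest, and the other 4 arrays lay together. The difference was 0.49 (SE 0.31, adjusted p 0.787 by limma, exact permutation p 0.4). It stayed above 0 in every setting run, between 0.20 with control array 1 left out and 0.68 with mPGC-1α array 2 left out. The study reported less CCL5 protein in microglia of mPGC-1α mice after stroke. That is another measure than RNA, and its time after stroke may differ.

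Ccl6 and Ccl9 are macrophage ligands of Ccr1. Ccl9 levels were 3.57, 4.29 and 3.15 in control and 4.21, 3.72 and 4.02 in mPGC-1α (difference 0.31, SE 0.28, adjusted p 0.852 by limma). Ccl6 was marked as an outlier on array 3 of each group and had levels of 3.43 and 4.14 against 3.68 and 3.77. Neither gene separated the groups. Ccl8, a monocyte attractant, went the other way on control array 3, with levels of -0.81, 0.03 and 1.69 against -0.94, -0.08 and -0.54. Its difference of -0.82 (SE 0.54, adjusted p 0.798 by limma) was -0.12 on slide 1 and -2.22 on slide 2. Ccl11, an eosinophil attractant, was faint, with levels of -4.36, -4.62 and -4.45 against -4.85, -4.71 and -5.31, which did not overlap (difference -0.48, SE 0.32, exact permutation p 0.1, adjusted p 0.8 by limma).

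**Figure D2:**
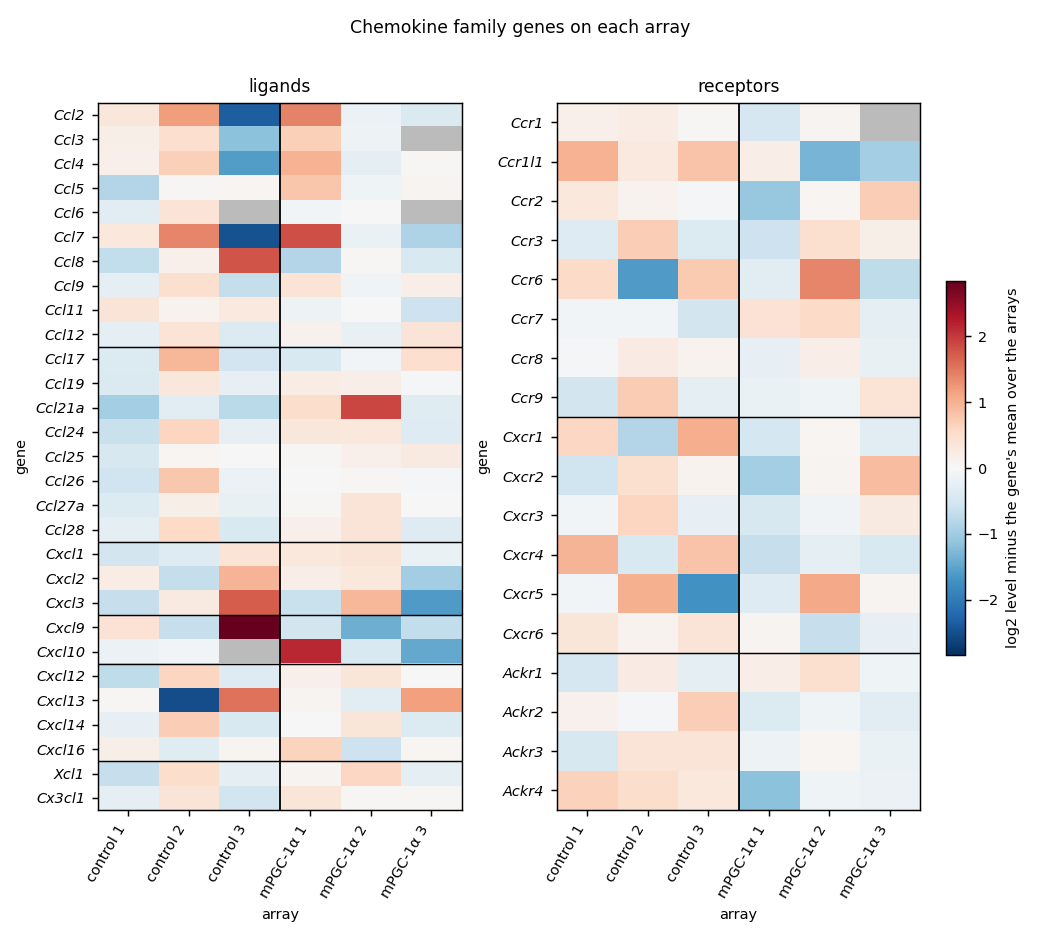
Level of 47 of the 48 tested members on each array minus that gene's mean over the arrays (log2; red above, blue below, grey marked as an outlier), with ligands left, receptors right, lines between role classes and a line between the groups. Control 3 is blue in Ccl2, Ccl3, Ccl4 and Ccl7 and red in Ccl8, Cxcl3 and Cxcl9.

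The other CC ligands include the lymphoid attractants Ccl19 and Ccl21, which guide dendritic cells and T cells through Ccr7. Of the 8 tested, 6 were higher in mPGC-1α, with a median difference of 0.19. Ccl21a levels were -2.86, -2.21 and -2.66 in control and -1.39, 0.00 and -2.23 in mPGC-1α. mPGC-1α arrays 1 and 2 were above all controls, and array 3 lay just below control array 2, so the groups overlapped. They did not overlap with quantile normalization, normexp, the authors' log2 values or scaling over unmarked probes, where the differences were 1.43, 1.14, 1.62 and 1.46. The difference was 1.37 (SE 0.50, unadjusted p 0.0215, adjusted p 0.672 by limma, exact permutation p 0.2), 1.84 on slide 1 and 0.43 on slide 2, and 0.76 without mPGC-1α array 2. Mice carry near-identical copies of Ccl21a, and the probe may detect all of them. mPGC-1α array 2 also had the highest summed level of the 12 astrocyte markers, 5.96 against 3.87 to 4.85 on the other arrays, and the part of other cells in the Ccl21a level was not tested.

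Ccl19 levels were 0.93, 1.66 and 1.11 in control and 1.55, 1.54 and 1.28 in mPGC-1α. Ccl17, a ligand of Ccr4, had levels of -0.15, 1.19 and -0.30 against -0.19, 0.17 and 0.71. Both differences, 0.22 (SE 0.23) and -0.01 (SE 0.40), were within the spread between arrays. The receptor of Ccl19 and Ccl21a, Ccr7, had levels of -2.44, -2.42 and -2.86 against -1.94, -1.81 and -2.64, with a difference of 0.45 (SE 0.30, adjusted p 0.805 by limma) and of 0.97 (SE 0.39, adjusted p 0.676) on a second probe. The other 5 tested genes of the class, Ccl24, Ccl25, Ccl26, Ccl27a and Ccl28, had differences from -0.01 to 0.28, and the probes of Ccl25 disagreed in sign.

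Among the CXC ligands of neutrophils, which act through Cxcr2, 3 of 5 could be tested and 1 was higher in mPGC-1α. Cxcl2 levels were -1.04, -1.91 and -0.28 in control and -1.05, -0.95 and -2.22 in mPGC-1α. Cxcl3 levels were -3.40, -2.49 and -1.02 against -3.38, -1.78 and -4.34. In both genes control array 3 was the highest and mPGC-1α array 3 the lowest of all arrays, and the other 4 arrays overlapped. Differences on slide 1 were 0.47 and 0.36, and on slide 2 -1.94 and -3.32. Over all arrays they were -0.33 (SE 0.46) and -0.86 (SE 0.71), with adjusted p 0.917 and 0.837 by limma. Cxcl1 was faint and not well above background on mPGC-1α array 3, with levels of -5.72, -5.57 and -4.80 against -4.89, -4.82 and -5.39. Its control array 3 was barely above mPGC-1α array 2, and control array 1 was the lowest. The difference was 0.33 (SE 0.38, adjusted p 0.893 by limma), opposite in sign to those of Cxcl2 and Cxcl3.

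Cxcl9 and Cxcl10 are interferon-inducible ligands of Cxcr3, a receptor of activated T cells. Cxcl9 levels were -2.91, -3.98 and -0.48 in control and -3.85, -4.72 and -4.03 in mPGC-1α. Control array 3 was far above the rest, and control array 2 lay among the mPGC-1α arrays. The difference was -1.74 (SE 0.74, unadjusted p 0.0426, adjusted p 0.687 by limma, exact permutation p 0.2), -0.84 on slide 1 and -3.55 on slide 2. Leaving out control array 3 gave -0.76, and leaving out control array 2 gave -2.50.

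Cxcl10 did not follow Cxcl9. Its levels were -0.36 and -0.28 in control, with array 3 marked as an outlier, and 1.95, -0.64 and -1.65 in mPGC-1α. mPGC-1α array 1 was the highest and the other 2 mPGC-1α arrays the lowest. The difference of 0.21 (SE 0.86, adjusted p 0.977 by limma) became -0.06 with the marked spot kept, whose level was 0.47, and -0.82 without mPGC-1α array 1. The receptor Cxcr3 had levels of -1.79, -1.09 and -1.94 against -2.16, -1.80 and -1.44, which overlapped.

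Of the remaining CXC ligands, Cxcl16, a membrane-bound ligand of Cxcr6, had levels of 2.74, 2.23 and 2.64 in control and 3.21, 1.97 and 2.64 in mPGC-1α (difference 0.07, SE 0.30). Cxcl14 had levels of 0.21, 1.14 and 0.02 against 0.46, 0.79 and 0.05 (difference -0.02, SE 0.32). In both genes the groups overlapped fully, and the second probes gave 0.43 and 0.49. Cxcl13, a B cell attractant, spanned the widest range within a group of any tested member, with levels of -1.28, -3.83 and 0.24 in control and -1.22, -1.60 and -0.15 in mPGC-1α. Cxcl12, the ligand of Cxcr4 and Ackr3, had a difference of 0.32 (SE 0.37) on one probe and -0.66 (SE 0.55) on the other.

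Cx3cl1, the neuronal ligand that binds Cx3cr1 on microglia, had levels of -1.89, -1.26 and -2.15 in control and -1.29, -1.59 and -1.59 in mPGC-1α. Xcl1, made by natural killer and T cells, had levels of -3.57, -2.40 and -3.17 against -2.84, -2.33 and -3.16. Both overlapped between groups, and both differences were 0.28 and 0.27 (SE 0.29 and 0.37). The summed level of the 12 neuron markers was 4.98 to 5.69 in control and 5.64 to 5.86 in mPGC-1α. This sum is mostly Snap25, whose difference was 0.28, while the median difference over the 12 was 0.94, and their part in the Cx3cl1 level was not tested.

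**Figure D3:**
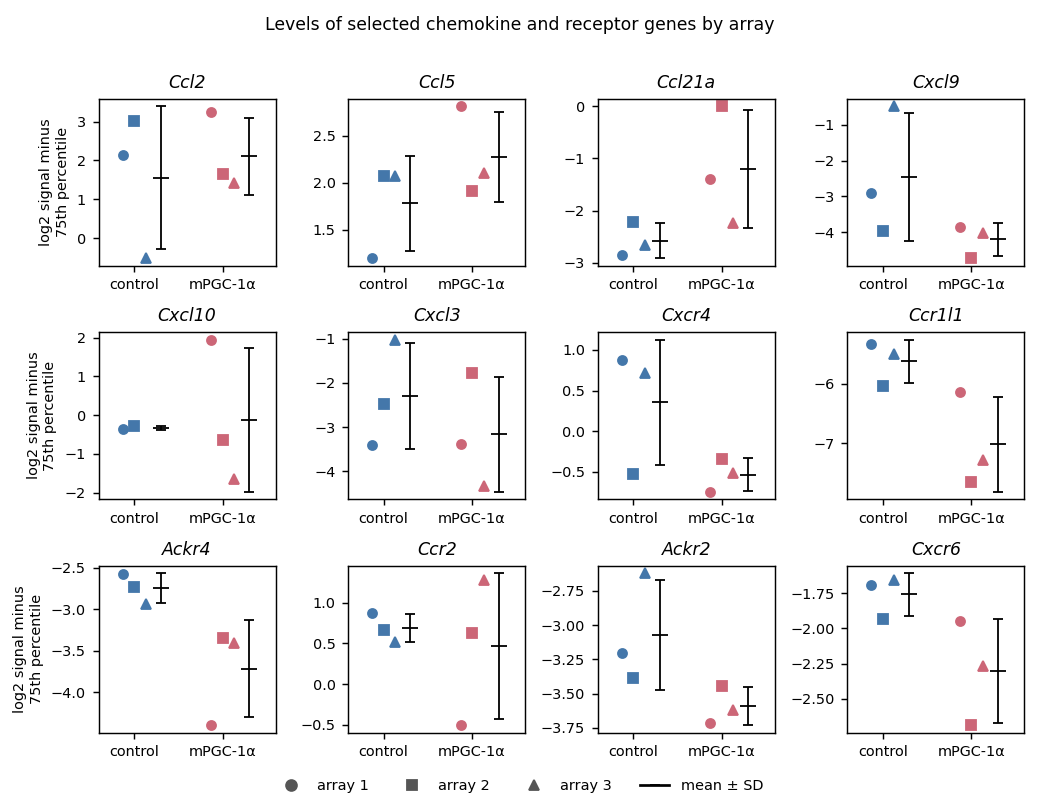
Level (log2 signal minus the array's 75th percentile) of 12 members on each array (circle, square and triangle for arrays 1, 2 and 3 of a group; black bars, mean ± SD, n = 3, or 2 where a spot was marked), each panel with its own y axis. Ccr1l1, Ackr2, Ackr4 and Cxcr6 do not overlap between the groups, while control array 3 sets the control spread of Ccl2 and Cxcl9.

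CC receptors bind the ligands above and sit on monocytes, macrophages and lymphocytes. Of the 9 tested, 4 were higher and 5 lower in mPGC-1α, with a median difference of -0.18 (0.26 without mPGC-1α array 1). Ccr1l1, a gene related to Ccr1, had levels of -5.33, -6.03 and -5.50 in control and -6.13, -7.65 and -7.28 in mPGC-1α. The groups did not overlap, with mPGC-1α array 1 close to control array 2, and the gene was well above background on 3 of 3 control arrays and 1 of 3 mPGC-1α arrays. The difference was -1.40 (SE 0.47, unadjusted p 0.0151, adjusted p 0.669 by limma, exact permutation p 0.1), -1.21 on slide 1 and -1.78 on slide 2, with 2 of the 3 mPGC-1α values not well above background. With normexp background correction it was -0.32.

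Ccr2, which marks monocytes arriving from the blood, had levels of 0.87, 0.67 and 0.52 in control and -0.50, 0.63 and 1.28 in mPGC-1α. The mPGC-1α arrays lay on both sides of the controls, and the difference was -0.22 (SE 0.39, adjusted p 0.936 by limma). The summed level of the 12 monocyte and border macrophage markers was also lowest on mPGC-1α array 1, at 5.28 against 5.64 to 6.47 on the others, and its part in the Ccr2 level was not tested. Ccr1, fitted without mPGC-1α array 3, Ccr3, Ccr8 and Ccr9 had differences from -0.32 to 0.04. The lowest was that of Ccr1, which became -0.03 with the marked spot kept, whose level of -0.98 was the highest for this gene. Ccr6 varied by over 2 log2 units within each group, from -1.97 to 0.38 in control and from -1.08 to 1.02 in mPGC-1α.

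CXC receptors were lower in mPGC-1α in 4 of 6 tested genes, with a median difference of -0.36. Among the lower ones, Cxcr1 was faint and not well above background on mPGC-1α array 3. It passed the filter only through the control group, where it is higher (difference -0.52, SE 0.48, adjusted p 0.859 by limma). Cxcr4, the receptor of Cxcl12, had levels of 0.88, -0.53 and 0.71 in control and -0.74, -0.34 and -0.52 in mPGC-1α. Control arrays 1 and 3 were above all mPGC-1α arrays, and control array 2 lay among them. The difference was -0.89 (SE 0.36, unadjusted p 0.0334, adjusted p 0.679 by limma, exact permutation p 0.3), -0.72 on slide 1 and -1.23 on slide 2. Without control array 2 it was -1.33 with an adjusted p of 0.00802 by limma, and then 2130 probes were called over the whole array. A second Cxcr4 probe gave -0.16 (SE 0.30, adjusted p 0.943).

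Cxcr6, the receptor of Cxcl16, had levels of -1.69, -1.93 and -1.65 in control and -1.95, -2.69 and -2.27 in mPGC-1α. The groups did not overlap, although control array 2 and mPGC-1α array 1 nearly met, and the difference was -0.54 (SE 0.27, adjusted p 0.737 by limma, exact permutation p 0.1). Its second probe gave -0.18. Cxcr2, the neutrophil receptor, had levels of -0.77, 0.24 and -0.10 against -1.17, -0.13 and 0.67, and a difference of 0.00 (SE 0.44). The summed level of the 11 neutrophil markers, at 7.44, 7.92 and 7.90 in control and 7.21, 8.06 and 7.97 in mPGC-1α, was lowest on the same 2 arrays as Cxcr2, and its part in the Cxcr2 level was not tested. In bulk RNA, fewer cells of a type and less RNA per cell cannot be told apart.

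The atypical receptors were lower in mPGC-1α in 3 of 4 genes, with a median difference of -0.35. Ackr4, which scavenges Ccl19, Ccl21 and Ccl25, had levels of -2.57, -2.73 and -2.93 in control and -4.39, -3.35 and -3.40 in mPGC-1α. All mPGC-1α arrays were below all controls, array 1 the furthest. The difference was -0.97 (SE 0.34, unadjusted p 0.0195, adjusted p 0.669 by limma, exact permutation p 0.1), -1.22 on slide 1 and -0.47 on slide 2, and it stayed between -1.15 and -0.59 in all settings run. Ackr2, a scavenger of inflammatory CC ligands, had levels of -3.20, -3.39 and -2.62 against -3.71, -3.44 and -3.62, which did not overlap (difference -0.52, SE 0.30, adjusted p 0.773 by limma). They overlapped with quantile normalization, normexp, the authors' values and scaling over unmarked probes, and on a second probe, which gave -0.25 (SE 0.33). Ackr1, which carries chemokines across venular endothelium, was higher in mPGC-1α by 0.34 (SE 0.25), with levels of 0.84, 1.56 and 1.05 against 1.51, 1.76 and 1.20. A second, much fainter Ackr1 probe gave 0.59 (SE 0.42). Ackr3 had a difference of -0.18 (SE 0.32).

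The members varied more between arrays of one group than most genes. The median within-group SD of the 48 members was 0.50, against 0.32 for all 18222 tested genes, and it was above 1 in 8 members (16.7%) and in 2.11% of all tested genes. These were Ccl7, Cxcl13, Ccl2, Cxcl10, Cxcl9, Cxcl3, Ccr6 and Cxcr5, with SDs from 1.72 to 1.11. The ligands did not vary as one block. Of the 26 tested ligands with 6 values, control array 3 was the lowest array for 9, among them Ccl2, Ccl4 and Ccl7, and the highest for 6, which were Ccl8, Cxcl1, Cxcl2, Cxcl3, Cxcl9 and Cxcl13. Control array 1 was the lowest for 10 and control array 2 the highest for 10. The median deviation of all tested genes from their own means on control arrays 1, 2 and 3 was -0.18, 0.15 and -0.10. Of the 17 such receptors, mPGC-1α array 1 was the lowest array for 8 and the highest for 0.

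Other genes of the pathway were described from a list of 60, mostly G protein subunits, arrestins, receptor kinases and regulators of the cytoskeleton, with 5 further ligands or receptors (Pf4, Ppbp, Rarres2, Ccrl2 and Cmklr1). Of the 58 tested, 0 had an adjusted p below 0.05 by limma, and 7 had an unadjusted p below 0.05 (12.1%, against 5.94% of all tested genes), 2 higher and 5 lower in mPGC-1α. None of the 5 ligands or receptors was among them. Stat3, a transcription factor, had levels of 3.14, 3.19 and 3.14 in control and 3.64, 3.67 and 3.85 in mPGC-1α, with no overlap (difference 0.56, SE 0.16, adjusted p 0.669), but only 0.04 as the mean of its probes. The kinase genes Src and Grk3 were next in this direction, with differences of 0.55 and 0.70 and adjusted p of 0.686 and 0.746 by limma. As the mean of its probes the Src difference was 0.16.

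On the lower side, Elmo1, a Rac activator, had levels of 0.84, -0.74 and 0.68 in control and -0.80, -0.78 and -1.04 in mPGC-1α. Cdc42, a GTPase of cell polarity, had levels of 3.92, 3.28 and 4.20 against 2.81, 3.07 and 3.28. As for Cxcr4, control array 2 lay close to the mPGC-1α arrays in both genes, apart from the other controls. Differences were -1.13 and -0.75 with an adjusted p of 0.669 by limma, and without control array 2 they were -1.63 and -1.01 with adjusted p of 0.0027 and 0.0231. As the mean of all probes of each gene they were -0.37 and -0.21.

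**Figure D4:**
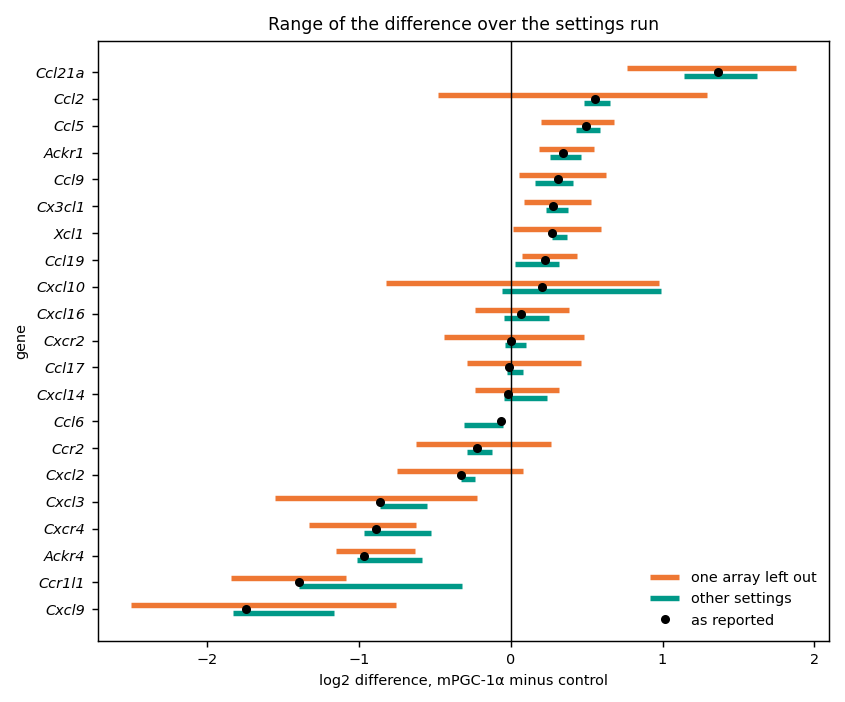
Log2 difference, mPGC-1α minus control, of 21 of the 22 members that the rule for named genes selects: as reported (points), its range when 1 array was left out (orange) and its range over the other settings (green). Ccl21a stays between 0.76 and 1.88 and Cxcl9 between -2.50 and -0.76, while the range of Ccl2, Cxcl10, Ccl17, Cxcl14, Cxcl16, Cxcl2, Ccr2 and Cxcr2 crosses 0.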

How the data were processed

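RNA of microglia selected for P2RY12 was hybridised by the authors to Agilent mouse arrays, 1 array per sample. The deposited scanner files give the intensity of each spot on a linear scale, from Feature Extraction 11.5.1.1, background-subtracted but not normalized between arrays, with flags (other values deposited by the authors) for spots above background and outliers. The labels name Cy3 and the methods Cy5, and the single green channel was used. The series matrix deposited by the authors holds log2 values normalized in GeneSpring V13 for 46731 probes, with array medians of 7.78 to 7.79 and r of at least 0.999 with the log2 processed signal. Its filter was not given in the sources used here.

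Levels were computed in R 4.3.3 (package data.table, version 1.17.8) as log2 processed signal less the 75th percentile of the non-control spots of that array. Outlier-marked spots were left out, and spots of a probe averaged. Tested probes had at least 2 values per group and, in 1 group or both, were well above background wherever unmarked. These were 40745 of 56605 probes, and 3750 lacked at least 1 value. Names came from matching accessions to the RefSeq genes of assembly GRCm38.p6 (33767 probes, 59.7%). The array grid follows an older build, so no probe coordinates are given. A gene is represented by its brightest probe, and of 12 members with several tested probes 3 had probes of opposite sign (Ccl25, Cxcl12 and Cxcl14).

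Groups were taken from the genotype in the labels and compared with limma 3.58.1 (lmFit, eBayes with trend, two-sided, group only). The methods name no test for the arrays. The members and lists were chosen with earlier results of these data known. Values on every array are given for members with p below 0.05, those with no overlap and a difference of at least 1, Ccl2 and Ccl5, and the 2 with the highest mean level in each role class, and other members were named after their values were seen. Of the signalling list the 3 genes with the smallest p in each direction were to be named. For 1 member and 1 of these signalling genes, which enter the counts, no values are reported here. Arrays with the same replicate number deviated from their group means together (r = 0.25, 0.224 and 0.172 across probes, against -0.336 to 0.038 for other pairs). The replicate numbers were therefore taken to pair the arrays in an alternative fit, while the main fit had no block. This pairing was read from the same data, and replicate 3 of each group is also all of slide 2. The number of arrays limits the precision. Alternatives were quantile normalization, normexp (offset 50, on median spot signals) with quantile normalization, the series matrix, no filter or a stricter filter on dim probes, marked spots kept, a block for the slide or for the replicate number, eBayes without trend, the mean of all probes, and leaving out each array. Scaling to the 75th percentile over unmarked probes was added after seeing the data.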

Additional observations from a re-analysis of the deposited data

How the results depend on the processing

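The number of members with an adjusted p below 0.05 by limma was 0 in all settings run except without control array 2, which gave 1 (Cxcr4), and with the replicate block added to scaling over unmarked probes, an alternative chosen after seeing the data. That fit called 2 members by limma, Ccl21a (1.46, adjusted p 0.00125) and Cxcl9 (-1.65, adjusted p 0.00189). In it 12 of 48 members had an unadjusted p below 0.05, against 11.9% of all tested genes. The same fit called 3 signalling genes, and 1720 probes over the whole array. Of spots above the 75th percentile, 30.6% were marked for mPGC-1α array 3 but 3.28% for control array 1. The replicate block with the main scaling called 0 members and 1 probe in all, and changed no other call. With it 7 of 48 members had an unadjusted p below 0.05 by limma, as had 9.95% of all tested genes. The lowest adjusted p among the members was then 0.121. Members without overlap numbered 2 with quantile normalization, with or without the replicate block, 2 with the authors' log2 values and 3 with normexp, Ackr4 in each and Ccl21a, higher, among them. For these settings the share of all tested genes without overlap was not computed, so these counts have no background to be read against. Leaving out 1 array at a time gave 0 to 1 members and 0 to 6 signalling genes called, with 0 to 2130 probes called in all. An unadjusted p below 0.05 by limma was reached by 1 to 13 members, and by 2.84% to 20.4% of all tested genes. The median difference was from -0.11 to 0.34, with 0.01 to 0.20 over all tested genes. In these fits 6 to 20 members did not overlap. Groups separate more easily with 1 array fewer, and the share over all tested genes was not computed there.

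Of 521 differences of named genes under another setting, 485 kept their sign and their side of the threshold, 8 passed it and 28 changed sign. Of these sign changes 16 came from leaving out 1 array, with ranges of -0.48 to 1.30 for Ccl2 (lowest without control array 3), -0.29 to 0.46 for Ccl17, -0.75 to 0.078 for Cxcl2, -0.82 to 0.98 for Cxcl10, -0.24 to 0.32 for Cxcl14, -0.23 to 0.38 for Cxcl16, -0.63 to 0.26 for Ccr2 and -0.44 to 0.48 for Cxcr2. With scaling over unmarked probes, with or without the block, Ccl17 was 0.083 and Cxcl14 0.075. Cxcl16 was -0.045 with quantile normalization, with or without the block, -0.044 with normexp and -0.040 with the authors' values. Cxcl10 was -0.055 with the authors' values and -0.058 with marked spots kept, Cxcr2 was -0.041 with normexp, and Cxcl14 was 0.24 as the mean of its probes. The causes were not tested. Faint members, such as Ccr1l1 and Cxcl1, are limited by their signal over background.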
